A study of Mus musculus with 2 samples.

Results

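Lipid-associated macrophages are macrophages that take up and break down lipid from dying cells, and 10 genes associated with them, Trem2, Gpnmb, Cd68, Ctsd, Cd9, Lgals3, Spp1, Apoe, Lpl and Fabp5, were described here. They were chosen by symbol from the 32285 genes of the count tables, and all 10 were found once. Nuclei came from the periosteum with the hematoma or callus of C57BL6 mice, 10 to 14 weeks old with the sexes mixed, and the tibias of 3 or 4 mice were pooled in each library. One library was made at day 1 after an open, non-stabilized tibial fracture. The other was made at day 5 after musculoskeletal traumatic injury (MTI), which adds compression of the surrounding muscles to the same fracture. There was 1 library per condition, so no test between conditions or populations was possible, and the libraries were not compared with each other because day and injury differ together. Nuclei are not replicates, and all intervals below are exact 95% intervals that cover counting error only.

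TREM2 is a surface receptor for lipids and lipoproteins that signals through the adaptor TYROBP, and in macrophages that ingest debris it accompanies a program of lipid uptake, lysosomal breakdown and lipid export. The members fall on that path: the receptor Trem2; the endolysosomal genes Gpnmb, Cd68 and Ctsd; the membrane and secreted proteins Cd9, Lgals3 and Spp1; and the lipid carriers and enzymes Apoe, Lpl and Fabp5. Several of them, such as Spp1, are also made by bone cells and by osteoclasts, which resorb bone and descend from the same myeloid lineage.

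The day 5 post-MTI library held 1446 barcodes, of which 1127 passed the filters with a median of 2364 unique molecular identifiers (UMIs), and the day 1 library held 48987 barcodes, of which 2405 passed with a median of 409 UMIs. The libraries shared 33 barcodes, 15 of them among the nuclei kept. Genes are not compared with each other in level. Levels are given as CPM, the UMIs of a gene in all nuclei of a population for every 1000000 UMIs found in them. Nuclei were clustered without the members and named from fixed markers. At day 5 post-MTI, 277 nuclei in 4 clusters were macrophage-like, with all 12 macrophage markers detected at a summed 6562 CPM, and 30 nuclei were osteoclast-like, with all 8 osteoclast markers detected at a summed 6201 CPM. In the osteoclast-like nuclei C1qa, C1qb, C1qc, Cd163 and Maf were at 0 UMIs.

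All members are protein-coding genes and are placed here on mouse build mm10. Trem2 lies at chr17:48346401-48354147 and Gpnmb at chr6:49036546-49070929 on the plus strand, Cd68 at chr11:69664213-69666153 and Ctsd at chr7:142375911-142388038 on the minus strand. Cd9 lies at chr6:125460266-125494791 on the minus strand, and Lgals3 at chr14:47367751-47386160 and Spp1 at chr5:104435118-104441050 on the plus strand. Apoe lies at chr7:19696109-19699188 on the minus strand, and Lpl at chr8:68880491-68907448 and Fabp5 at chr3:10012548-10016607 on the plus strand. Ctsd overlaps Gm49369 and Spp1 overlaps Gm42793 on the same strand, and Cd9 overlaps Gm26728 and Gm28809 on the opposite strand, so the values of Ctsd and Spp1 are uncertain to the extent that reads could be divided with those genes.

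The windows below were taken from promoters in RefSeq (GRCm38.p6), which held entries for 8 of the 10 members. They are shown because they hold the only matches, upstream of the RefSeq start, to 5 motifs searched on both strands. RefSeq starts can differ from the gene ends given above, and every Ctsd window but the first lies inside the Ctsd span given there. The motifs were CACGTG, the core of sites bound by the lysosomal regulators of the MiT/TFE family, TCATGTG, a site of MITF, GAGGAAGT, a site of the myeloid factor PU.1, TGACTCA, an AP-1 site, and TGACNNNGC, the antioxidant response element. Capitals mark the match. TGACTCA and TGACNNNGC begin alike and can overlap, but no window matched both, and the last pair of Ctsd windows share bases.
Ctsd, chr7:142388057-142388077, minus strand: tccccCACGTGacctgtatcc
Ctsd, chr7:142387910-142387935, minus strand: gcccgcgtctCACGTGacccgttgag
Ctsd, chr7:142387871-142387899, minus strand: gcgggtcagcTGACTCCGCgggactgcgg
Ctsd, chr7:142387856-142387884, minus strand: ccgcgggactGCGGCGTCAtcctgcctat
Cd68, chr11:69666303-69666329, minus strand: aagttccgtgTGAGTCAgctgcctcat
Cd68, chr11:69666178-69666204, minus strand: ctgaggtgtcTGAGTCAggtttggggt
Spp1, chr5:104434988-104435015, plus strand: aaaaccagagGAGGAAGTgtaggagcag
CACGTG was in the promoter of 1 member, Ctsd, and in 7.15% of all 32851 promoters. TGACTCA was in those of Cd68 and Gpnmb and in 5.20% of all. The Gpnmb match lay just after the RefSeq start but before the Gpnmb start given above. GAGGAAGT was in 1 of 2 entries for Spp1 and in 3.20% of all, TGACNNNGC in Ctsd and in 12.4% of all, and TCATGTG in no member and in 3.77% of all. A match describes letters in a window of 300 bases and is not a measured binding site.

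In the macrophage-like nuclei, 9 of the 10 members were over 2-fold higher than in the other 850 nuclei kept at day 5 post-MTI. The same call was made for 10.5% of the 15213 genes with at least 10 UMIs. The median ratio of the members was 5.49, and that of all genes tested was 0.804. Since clusters were drawn from the same nuclei, these ratios are descriptions. The count depended on which clusters were named: under the first of 4 versions of the naming rule, which named 29 nuclei macrophage-like, 1 member was higher and 3 were lower, and with the clustering resolution halved, which named 115 nuclei, 5 were higher and 1 lower. With the resolution halved the macrophage-like levels also fell by over 1.5 times for Spp1, to 244 CPM, Cd9, to 36.8 CPM, Lpl, to 48.4 CPM, Lgals3, to 248 CPM, and Gpnmb, to 473 CPM, while Trem2 was at 85.3 and Cd68 at 50.4 CPM.

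Trem2, the lipid receptor, was at 80.9 CPM in macrophage-like nuclei (100 UMIs) and 9.35 CPM in the others (29 UMIs), a ratio of 8.65 (5.67 to 13.6). Gpnmb, a glycoprotein of endolysosomes, had the highest ratio, 12.7 (10.8 to 14.9), at 739 against 58.4 CPM. Cd68, a lysosomal membrane protein, had a ratio of 4.93 (3.13 to 7.93). Ctsd, which encodes the lysosomal protease cathepsin D, had a ratio of 4.21 (3.50 to 5.06). The interval of Gpnmb did not overlap those of the other 2 endolysosomal genes. It did overlap those of Trem2 and Fabp5, so its rank as the highest was not resolved. Outside the macrophage-like cluster led by Mmp12, macrophage-like Gpnmb was at 385 CPM.

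Among the membrane and secreted proteins, Spp1, which encodes the matrix protein osteopontin, was at 919.7 CPM in macrophage-like nuclei and 152 CPM in the others, a ratio of 6.04 (5.42 to 6.74). Lgals3, which encodes galectin-3, was at 501 against 115 CPM, a ratio of 4.36 (3.82 to 4.98). Cd9, a tetraspanin, was the member that missed the limit, at 108 against 68.7 CPM, a ratio of 1.58 (1.26 to 1.97). Its highest level was in the neutrophil-like nuclei, at 355 CPM (28 UMIs), followed by the macrophage-like cluster led by Mmp12 at 227 CPM and endothelial-like nuclei at 144 CPM, and the intervals of neighbours in that order overlapped.

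Among the lipid genes, Fabp5, a fatty acid binding protein, was at 108 CPM in macrophage-like nuclei and 10.0 CPM in the others, a ratio of 10.8 (7.24 to 16.5). Apoe, the lipoprotein ligand of several lipid receptors, was at 290.4 against 36.8 CPM, a ratio of 7.90 (6.38 to 9.84). Lpl, which encodes lipoprotein lipase, was at 112 against 32.3 CPM, a ratio of 3.46 (2.66 to 4.52). The Lpl ratio leaned on the macrophage-like cluster led by Mmp12. Outside it, macrophage-like Lpl was at 52.8 CPM, with 40.6 CPM in the cluster led by Dnase1l3 and 29.5 CPM in that led by Aox1. The count of members called higher without that cluster was not tested.

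**Figure D1:**
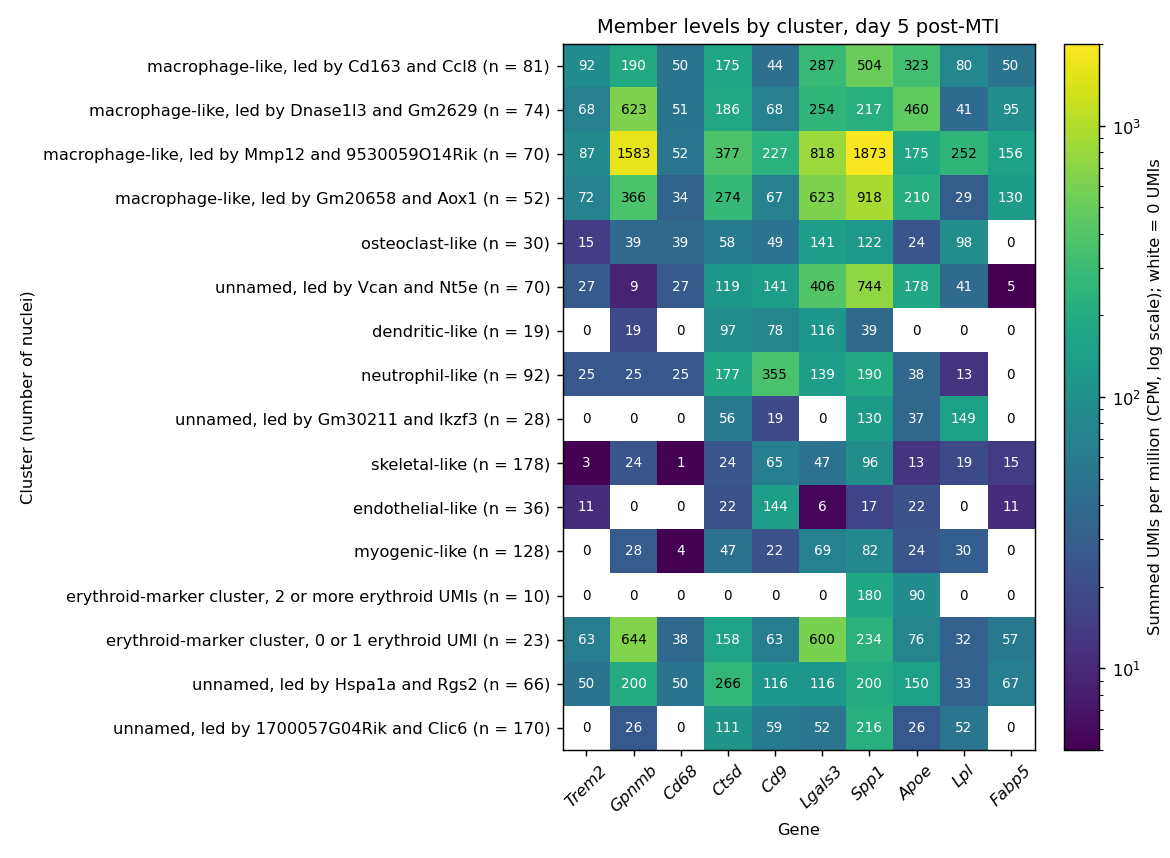
Level of each member (columns) in each cluster of the day 5 post-MTI library (rows), as CPM from summed UMIs on a log colour scale, with the value printed in each cell and the number of nuclei beside each name. The 4 macrophage-like rows hold most of the high values, Gpnmb and Spp1 peak in the row led by Mmp12, and the osteoclast-like row is low for most members.

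Detection per nucleus was sparse at equal depth. Before thinning, the macrophage-like nuclei had a median of 4049 UMIs. Of the 277, 177 held a UMI of Lgals3, 142 of Spp1, 131 of Gpnmb, 73 of Trem2 and 40, the fewest, of Lpl. Each nucleus was then thinned to 500 UMIs, which lowers detection and left out no nucleus of this library. A Gpnmb UMI was then found in 21.3% of the 277 macrophage-like nuclei and in 1.88% of the 850 others. Spp1 was found in 20.2% and 7.29%, and Trem2 in 4.69% and 0.471%. In myogenic-like nuclei, taken as nuclei of another lineage, Gpnmb was found in 2.34% of 128 nuclei (0.486 to 6.70%), below the macrophage-like interval of 16.6 to 26.6%. Trem2 was found in 0 of the 128, with an upper limit of 2.84%, which overlaps the macrophage-like interval of 2.52 to 7.89%. Overlap of these intervals does not by itself decide whether detection differed. Before thinning, Trem2 had 0 UMIs in the myogenic-like nuclei, with an upper limit of 4.10 CPM, against 80.9 CPM in the macrophage-like nuclei. UMIs of other members were found in the myogenic-like nuclei, with Spp1 at 82.3 CPM (74 UMIs) and Lgals3 at 69.0 CPM (62 UMIs), while Fabp5 had 0 UMIs. Whether these UMIs came from RNA free in the suspension was not tested in this library. At least 3 members were found in 7.22% of macrophage-like and 0.824% of other nuclei, and none in 37.5% and 77.2%. The UMIs were also concentrated. The tenth of macrophage-like nuclei with the most UMIs of a gene, 28 nuclei, held 91.3% of the Lpl UMIs, 81.3% of the Cd9 UMIs, 69.2% of the Spp1 UMIs and 46.0% of the Lgals3 UMIs. One nucleus held 137 of the 1137 Spp1 UMIs and one held 103 of the 914 Gpnmb UMIs.

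In the osteoclast-like nuclei, no member was over 2-fold higher than in the macrophage-like nuclei and 8 of 10 were over 2-fold lower. Among all 9630 genes tested, 16.2% were called higher and 26.0% lower. The median ratio was 0.204 for the members and 0.927 for all genes tested. Gpnmb was at 39.0 CPM in osteoclast-like nuclei (8 UMIs) against 739 CPM, 19.0-fold lower (9.58 to 44.0). Apoe was 11.9-fold lower (5.06 to 36.9), at 24.4 CPM from 5 UMIs, and Spp1 was 7.55-fold lower (5.09 to 11.7), at 122 CPM from 25 UMIs. Trem2 was 5.53-fold lower (1.84 to 27.3) and rested on 3 UMIs. Fabp5 had 0 UMIs in osteoclast-like nuclei, and its level of 108 CPM in macrophage-like nuclei was at least 5.90-fold higher by the exact interval. The macrophage-like levels were pooled over clusters that differed. Outside the cluster led by Mmp12, Cd9 was at 58.6 CPM, near its 48.8 CPM in osteoclast-like nuclei, while Gpnmb was at 385 and Spp1 at 519 CPM. The osteoclast-like Spp1 interval (78.9 to 180 CPM) overlapped that of the cluster led by Dnase1l3 (167 to 277 CPM). The count was not repeated by cluster.

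The 2 members that did not differ beyond 2-fold were Cd68, at 39.0 against 47.7 CPM, a ratio of 0.817 (0.337 to 1.72), and Lpl, at 97.5 against 112 CPM, a ratio of 0.874 (0.517 to 1.40). These intervals leave room for a difference in either direction. The macrophage-like Lpl level was pooled over clusters that differed, from 251.5 CPM in the cluster led by Mmp12 to 29.5 CPM in that led by Aox1. Outside the cluster led by Mmp12 it was 52.8 CPM, below the 97.5 CPM of osteoclast-like nuclei. The osteoclast-like interval (59.6 to 151 CPM) still overlapped that of the cluster led by Aox1 (11.9 to 60.7 CPM). Cd68 and Lpl were also the 2 members called higher in osteoclast-like nuclei than in the nuclei of neither kind. Cd68 had a ratio of 5.13 (1.98 to 11.97) and Lpl of 3.53 (2.05 to 5.82), where 12.8% of all 14446 genes tested were called higher. The nuclei of neither kind included clusters that also held macrophage markers, described below. The median ratio in the comparison with them was 0.873 for the members and 0.689 for all genes tested. Fabp5 was the member called lower there, a call made for 42.1% of all genes, but its level of 10.7 CPM in the nuclei of neither kind lay under the 14.6 CPM that 3 UMIs would be in osteoclast-like nuclei, so no difference was detectable at this depth.

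When each nucleus was named from its own markers without clusters, 35 nuclei were called osteoclast and 171 macrophage, and 1 member was over 2-fold higher and 2 were over 2-fold lower in the former. The member over 2-fold higher was Cd9, at 161 CPM in osteoclast and 67.4 CPM in macrophage nuclei. Gpnmb, Spp1, Cd68 and Lpl also turned direction, by less than 2-fold. Gpnmb was at 608 CPM in osteoclast and 486 CPM in macrophage nuclei, and Spp1 at 802 and 541 CPM. Cd68 was at 57.9 and 45.4 CPM, and Lpl at 103 and 76.2 CPM. Of these 35 nuclei, 29 were in the osteoclast-like cluster. The other 6, 4 of them from macrophage-like clusters, held 139 of the 147 Gpnmb, 169 of the 194 Spp1 and 29 of the 39 Cd9 UMIs. They had 22 UMIs of Ctsk, 30 of Atp6v0d2, 3 of Mmp9, 2 of Acp5 and 1 of Dcstamp, but none of Ocstamp, Oscar or Calcr. Both groups changed together in this alternative, and the part of these 6 nuclei in the count was not tested separately.

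**Figure D2:**
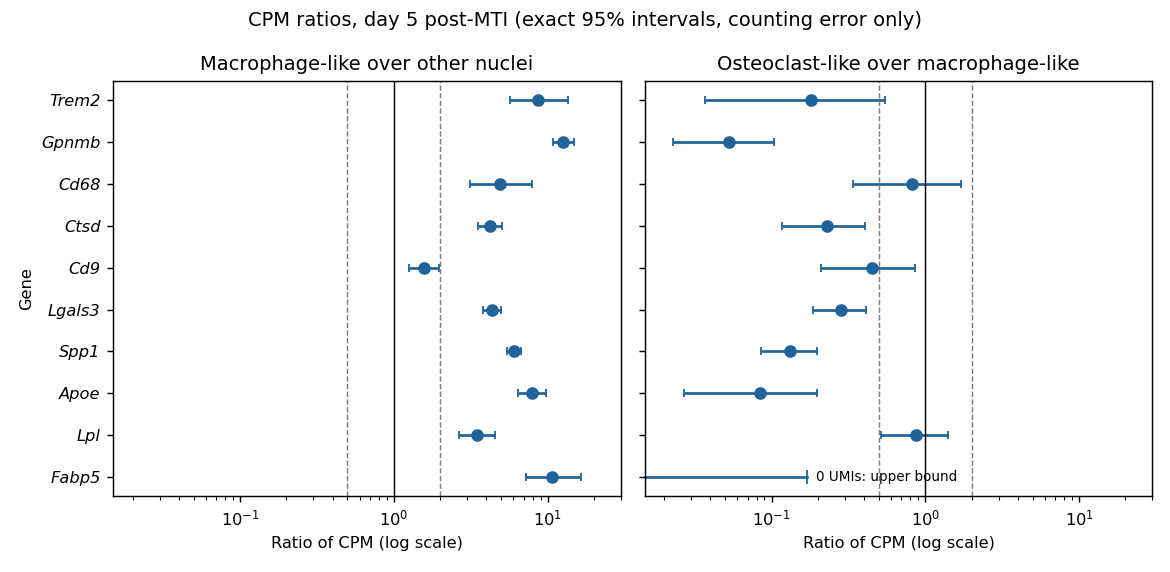
Ratio of CPM for each member (rows) on a log axis, macrophage-like over other nuclei on the left and osteoclast-like over macrophage-like on the right, with points for ratios, bars for exact 95% intervals and dashed lines at 2-fold. Points on the left lie above 2 except Cd9, and on the right 8 lie below 0.5, with Fabp5 shown as an upper bound from 0 UMIs.

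The 4 macrophage-like clusters differed in which members they held. They were led by Cd163 and Ccl8 (81 nuclei), Dnase1l3 (74), Mmp12 and Mmp13 (70) and Aox1 and Ptgr1 (52). In the cluster led by Mmp12, which encodes a macrophage elastase, Gpnmb was at 1583 CPM against 385 CPM in the other macrophage-like nuclei, a ratio of 4.11 (3.59 to 4.72). Lpl had a ratio of 4.76 (3.31 to 6.94), Cd9 of 3.87 (2.70 to 5.60), Spp1 of 3.61 (3.20 to 4.07) and Lgals3 of 2.22 (1.89 to 2.61). These 5 members were over 2-fold higher and none was over 2-fold lower, and the same calls were made for 7.52% and 10.1% of the 9050 genes tested. This cluster was singled out after its values had been seen. Osteoclast markers were at a summed 309 CPM in it, with 4 of 8 detected, and between 26.7 and 115 CPM in the other macrophage-like clusters, and their part in the result was not tested.

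The intervals of Trem2 and Cd68 overlapped among the clusters. Trem2 was at 91.8, 67.7, 87.5 and 71.6 CPM in the order above, and Cd68 at 50.4, 50.8, 52.0 and 33.7 CPM. Apoe was at 323 and 460 CPM in the clusters led by Cd163 and Dnase1l3 and at 175 and 210.5 CPM in those led by Mmp12 and Aox1. Gpnmb and Spp1 were ordered differently: the cluster led by Dnase1l3 had 623 CPM of Gpnmb and 217 CPM of Spp1, and the cluster led by Cd163 had 189.6 and 504 CPM.

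**Figure D3:**
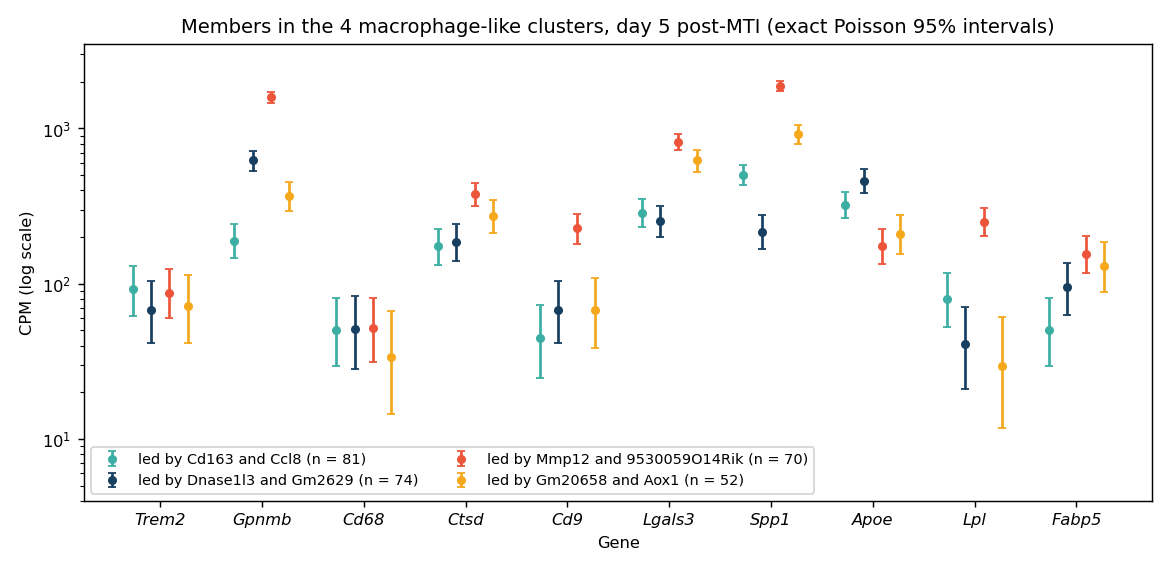
CPM of each member on a log axis in the 4 macrophage-like clusters of the day 5 post-MTI library, with points for levels and bars for exact Poisson 95% intervals. The cluster led by Mmp12 has the highest Gpnmb, Spp1, Cd9 and Lpl, the cluster led by Dnase1l3 the highest Apoe, and the intervals of Trem2 and Cd68 overlap across clusters.

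Arg1, which encodes arginase 1, and Mrc1, which encodes the mannose receptor, are widely used to tell macrophage states apart. Each cluster was put on the side of the gene with the higher multiple of its level in all macrophage-like nuclei. The names of the sides describe the multiples and not the level: the cluster led by Mmp12, on the Arg1 side, had a lower Arg1 multiple, 0.565, than the cluster led by Cd163 on the Mrc1 side, 0.739. Between the 122 Arg1-higher and the 155 Mrc1-higher nuclei, 6 members were over 2-fold higher and 1, Apoe, over 2-fold lower, where 8.83% and 8.80% of all genes tested were called. The median ratio was 2.36 for the members and 1.007 for all genes tested. Spp1 was at 1497 against 369.7 CPM, a ratio of 4.05 (3.50 to 4.70), Gpnmb had a ratio of 2.82 (2.43 to 3.27), and Apoe was 2.05-fold lower (1.63 to 2.58). Trem2 was at 81.2 and 80.6 CPM, a ratio of 1.01 (0.667 to 1.52).

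That division rested on the cluster led by Mmp12. Its Mrc1 multiple, 0.506, was close to that of Arg1. Without it, 2 members were over 2-fold higher and 1 lower: Spp1 had a ratio of 2.48 (2.06 to 3.00), Lgals3 of 2.29 (1.83 to 2.87) and Lpl of 0.478 (0.181 to 1.08), while Gpnmb was at 366 against 392 CPM, a ratio of 0.935 (0.724 to 1.20). With that cluster on the Mrc1 side, 0 were higher and 2, Gpnmb and Lpl, were lower. The direction of the Gpnmb difference thus changed with the place of 1 cluster. With the clustering resolution doubled 0 members were higher and 2 lower, and with the members kept in the clustering 1 was higher and 1 lower.

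Several clusters outside the macrophage-like nuclei also held macrophage markers. An unnamed cluster of 70 nuclei led by Vcan and Nt5e, with macrophage markers at a summed 7141 CPM and monocyte markers at 3509 CPM, had Spp1 at 744 CPM and Lgals3 at 406 CPM but Gpnmb at 9.13 CPM (2 UMIs) and Fabp5 at 4.56 CPM (1 UMI). A cluster of 33 nuclei led by Kel and Slfn14, which the rule named from erythroid markers, had Gpnmb at 602 CPM and Lgals3 at 561 CPM. This cluster was divided after its values had been seen: 10 of its nuclei held at least 2 erythroid UMIs, and these held no UMI of 8 members. The other 23 held macrophage markers at a summed 3330 CPM, erythroid markers at 19.0 CPM and every Gpnmb UMI of the cluster, 102, so the name did not describe them. Between these 23 and the macrophage-like nuclei, 0 members were over 2-fold higher and 3, Spp1, Apoe and Lpl, were lower, where 15.2% and 17.4% of all genes tested were called. Gpnmb had a ratio of 0.872 (0.703 to 1.07) and Lgals3 of 1.20 (0.956 to 1.49), while Spp1 was 3.93-fold lower (2.84 to 5.62). An unnamed cluster of 66 nuclei led by Hspa1a and Rgs2 had Gpnmb at 199.6 CPM, Ctsd at 266 CPM and macrophage markers at 3709 CPM.

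Among the other genes of these pathways, 6 were listed here for TREM2 signalling, and 5 were called higher in macrophage-like than other nuclei. In that comparison 10.5% of all genes were called higher and 33.0% lower. The median ratio of the list was 2.88, with Inpp5d at 3.93 and the adaptor Tyrobp at 2.93. Ms4a7 had a ratio of 13.4, well above that median. In osteoclast-like nuclei against those of neither kind, Syk, a kinase downstream of the adaptor, had a ratio of 2.84 and Tyrobp of 2.21 (0.908 to 4.70) from 8 UMIs. Of 10 further genes listed for lipid-associated and disease-associated macrophages, 1, Clec7a, had no entry by that symbol in the count tables and was not measured. Of the rest, 8 had enough UMIs to be called and 5 were higher in macrophage-like nuclei. Cd36, a fatty acid transporter, was at 5.66, Plin2, a lipid droplet protein, at 4.21 and Lilrb4a at 4.19. In osteoclast-like nuclei against those of neither kind 6 of the 8 were called lower, beside 42.1% of all genes, among them Plin2 at 0.150 (0.0307 to 0.442) and Lilrb4a at 0.194 (0.0777 to 0.403), while Olr1 was called lower from 1 UMI (0.0108 to 2.64) and 1, Itgax, was called higher from 4 UMIs.

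Of 16 genes of cholesterol and lipid handling, 15 could be called, and 11 were higher and 1 lower in macrophage-like nuclei. For this and the lists below, 10.5% of all genes were called higher and 33.0% lower in macrophage-like nuclei. Lipa, the lysosomal acid lipase, had a ratio of 8.25, Pltp, a phospholipid transfer protein, 7.002, Nr1h3, which encodes the liver X receptor alpha, 5.31 and the cholesterol exporter Abca1 4.96, and Angptl4, an inhibitor of lipoprotein lipase, had 0.235. In osteoclast-like nuclei against those of neither kind, 1 gene of the cholesterol and lipid list was higher and 3 were lower of 14. Among all genes 12.8% were called higher and 42.1% lower there. Npc2, a lysosomal sterol carrier, was the higher one, with a ratio of 8.63, and of 2.70 against macrophage-like nuclei. Of 10 lysosome genes, 8 were higher in macrophage-like nuclei, with Ctsb at 7.15 and Ctss at 5.91. All 4 genes of the MiT/TFE family could be called and 3 were higher, with Mitf at 4.12 and Tfec at 4.58. Tfec had a ratio of 13.3 in osteoclast-like nuclei over those of neither kind and of 1.605 over macrophage-like nuclei. In osteoclast-like over macrophage-like nuclei, 1 cholesterol and lipid gene was higher and 7 were lower of 13. Lysosome genes had 0 higher and 8 lower of 10, and the further lipid-associated genes 0 and 6 of 7. The MiT/TFE family had 0 and 1 of 4, and TREM2 signalling 0 and 2 of 5. Among all genes 16.2% were called higher and 26.0% lower in that comparison.

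Of 6 receptors of osteopontin, 2 were higher in macrophage-like nuclei, Itga9 at 8.23 and Itga4 at 3.11, and 1 was lower, Itgb3 at 0.0425. In osteoclast-like nuclei against those of neither kind, Itgav had a ratio of 12.9 and Itgb3 9.35, which together form the osteopontin receptor of osteoclasts. Spp1 itself had 0.790 (0.506 to 1.18). The nuclei of neither kind included the cluster led by Vcan and Nt5e, with Spp1 at 744 CPM. The ratio without that cluster was not tested. Of 6 tetraspanins beside Cd9, 3 were higher in macrophage-like nuclei, with Cd37 at 4.396, and 2 were lower. The receptor and tetraspanin counts in macrophage-like nuclei stand beside 10.5% of all genes called higher and 33.0% called lower. In osteoclast-like over macrophage-like nuclei, 2 receptors were higher and 1 was lower of 6, and 0 and 3 of 5 tetraspanins. Those counts stand beside 16.2% and 26.0% of all genes.

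Across the 16 clusters, the genes most like the mean of the members were Ctsb at Pearson's r of 0.953, Lrmda at 0.922, Cd200r4 at 0.903, F7 at 0.897 and Ms4a14 at 0.889, out of 9546 genes with at least 50 UMIs. The most like Trem2 were Ctsb at 0.944, Abca1 at 0.929 and Sdcbp at 0.929, and the most like Gpnmb were Syngr1 at 0.926, Fam20c at 0.894 and Ms4a14 at 0.884. Among the members themselves, Trem2 followed their mean most closely, at 0.938, and Cd9 least, at 0.415. That mean included the member compared with it, which raises these values. These correlations describe 16 points from 1 library.

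At day 1 post-fracture the members were compared between nuclei and barcodes with under 200 genes, called near-empty here, which can hold RNA free in the suspension or shallow nuclei, and these were not told apart. Between the 2405 filtered nuclei and the 43464 such barcodes, 0 members were over 2-fold higher and 2 were lower, where 6.73% and 8.70% of the 22216 genes tested were called. The count was 0 with a mitochondrial limit of 5% or with gene limits alone, and 7 lower with a minimum of 500 genes. The median ratio was 0.644 for the members and 1.06 for all genes tested. Spp1 was at 487 CPM in nuclei and 1109 CPM in near-empty barcodes, 2.28-fold lower (2.09 to 2.48), and Cd68 was at 3.33 and 9.49 CPM, 2.85-fold lower (1.06 to 10.8) from 4 UMIs. Ctsd, Cd9 and Lgals3 had ratios of 0.545, 0.506 and 0.523, and the intervals of all 3 lay below 1. Those of Trem2, at 0.930 (0.380 to 1.98), Gpnmb, Apoe, Lpl and Fabp5 spanned 1, so a difference was not detectable at this depth.

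The level of Spp1 fell with the number of genes per barcode, from 1121 CPM under 100 genes to 1102 CPM from 100 up to 200 genes, 696 CPM from 200 up to 500 and 482 CPM at 500 or more. In the 36 nuclei named macrophage-like at this day, a name that rested on 4 of 12 markers at a summed 2.37 times their median, Spp1 was at 1059 CPM (579 to 1776) from 14 UMIs, Ctsd at 302 CPM (82.4 to 774) from 4 and Fabp5 at 75.6 CPM from 1, and Trem2, Gpnmb, Cd68, Cd9, Lgals3, Apoe and Lpl had 0 UMIs, where 3 UMIs would be 227 CPM. That Spp1 interval holds the levels of the near-empty barcodes, so a level above theirs was not shown. Under a mitochondrial limit of 5%, a cluster of 54 nuclei led by Cfd and Lrg1 had Lpl at 824 CPM from 22 UMIs and Apoe at 225 CPM from 6 UMIs, against 49.2 and 15.6 CPM in near-empty barcodes. It was left unnamed and was singled out after its values had been seen.

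**Figure D4:**
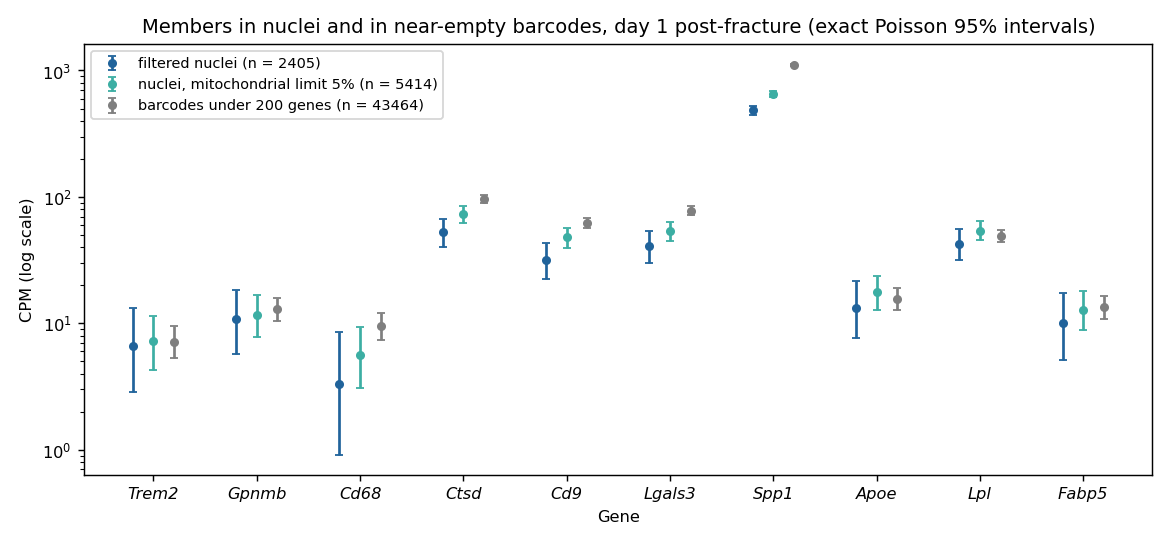
CPM of each member on a log axis at day 1 post-fracture in filtered nuclei, in nuclei under a mitochondrial limit of 5% and in barcodes with under 200 genes, with bars for exact Poisson 95% intervals. Spp1 is highest in the near-empty barcodes at 1109 CPM, and no member has a higher CPM in the filtered nuclei than in those barcodes.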

How the data were processed

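The authors deposited count matrices of UMIs per gene and barcode from Cell Ranger 7.0.1 (mm10) for 2 droplet single-nucleus libraries, at day 1 post-fracture and day 5 post-MTI. Barcode and gene lists accompany them. Following the study's methods, nuclei had 200 to 5000 genes, with under 5% mitochondrial and 2% ribosomal counts at day 5 and under 0.5% and 2.5% at day 1, and were clustered in Seurat 5.3.0 (resolution 1, immune subset 1.5, day 1 1.7). Unlike in the study, each library was clustered alone rather than integrated with others, and myogenic nuclei were kept as a population, so the nuclei are not those of the study's own analysis. At day 1 many more nuclei were kept than the study reports, even with the myogenic-like ones left out. The cause was not tested. Mitochondrial and ribosomal content was regressed out, and at day 1 cell cycle scores as well. The members and pathway lists were left out of the variable genes. The members and lists were chosen with earlier results of these data known.

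A cluster was named where at least 3 fixed markers, and their sum, reached 2 times the median over clusters and no other class led it. In the whole library, but not in the immune subset, a marker also had to be among its 100 leading genes. A cluster much shallower than the library's median also needed a marker among its first leading genes. An immune cluster that passed both the NK/T and the B cell lists was left unnamed. Of this naming rule 4 versions were tried, version 3 is reported, and versions 2 to 4 were set after clusters had been seen and after the members' levels under version 1 had been printed. The choice was thus not blind to the members. The effect of each version is given in the closing section.

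UMIs were summed per population and compared as ratios of CPM with exact conditional binomial intervals. A gene was called past 2-fold with at least 10 UMIs over both groups. Levels have exact Poisson intervals. The ratio call was tested on data simulated with counting error alone, which cannot show how it performs when UMIs vary between nuclei. Scrublet in scanpy 1.11.5 marked 3 of 1127 and 13 of 2405 nuclei as doublets, and none was removed. All members were named, with pathway genes past 2-fold in macrophage-like or osteoclast-like nuclei as examples. One gene of the lists, Clec7a, had no entry by that symbol in the count tables and was not analysed here.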

Additional observations from a re-analysis of the deposited data

How the results depend on the processing

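Of the 10 members, the count over 2-fold higher in macrophage-like nuclei was 9 in the reported analysis. It stayed between 7 and 10 under the other alternatives planned, but was 5 with the resolution halved, where 412 immune nuclei were left unnamed, and 1 under version 1 of the naming rule, which named 29 nuclei macrophage-like. Versions 2 and 4 gave the reported counts. The count over 2-fold higher in osteoclast-like than macrophage-like nuclei was 0, and 1 with the resolution halved or with nuclei named from their own markers. The count lower was 8, and 2 with nuclei named from their own markers and 3 under version 1. Between Arg1-higher and Mrc1-higher clusters 7 members were past 2-fold either way. The count was 2 with the resolution doubled (0 higher), 2 with the members kept in the clustering, 1 at a threshold of 3-fold, 3 without the cluster led by Mmp12 and 2 with it on the Mrc1 side. With the resolution halved or under version 1 this division gave no value. At day 1, 2 members were past 2-fold. The count was 0 with a mitochondrial limit of 5%, 0 with gene limits alone and 0 at a threshold of 3-fold, 5 at a threshold of 1.5-fold and 7 with a minimum of 500 genes (190 nuclei), and no member was higher in any of these. The versions of the naming rule, the doublets and the placing of the cluster led by Mmp12 were added after seeing the data. The cause of the other changes was not tested. With 1 library per condition, no replicate could be left out. No paired analysis was possible because the result comes from no test.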
